A study of Mus musculus with 12 samples.

Results

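The matrix metalloproteinases (MMPs) and their tissue inhibitors (TIMPs) were followed in mouse embryonic fibroblasts (MEFs) treated with the cytokine TNF. The 10 genes described were Mmp2, Mmp3, Mmp9, Mmp10, Mmp11, Mmp13, Mmp14, Timp1, Timp2 and Timp3. They were found by their symbols in the array's annotation, which gave 16 probes for these 10 genes, of 25697 probes and 16593 named genes in all. Where a gene had several probes above background, the brightest probe over all arrays stood for it. All 10 genes passed the filter on dim probes.

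RNA of 6 groups, 2 arrays each, was hybridised to 12 arrays of the Illumina MouseRef-8 v2.0 type. The tested lines were Rela-/-Nfkb2-/- MEFs, which lack RelA and the p100 precursor, and Rela-/-Relb-/-Rel-/- MEFs, which lack RelA, RelB and cRel, and they were set against wild-type (WT) MEFs. Each line was exposed to TNF at 10 ng/ml for 6 h or left untreated. RelA, RelB and cRel are NFκB subunits that carry an activation domain, and p100, the product of Nfkb2, is both an inhibitor of NFκB dimers and the precursor of p52, so the comparison asks which TNF responses need which subunits. All cells were C57BL/6 fibroblasts from embryos, immortalized by repeated passage. Each genotype may stand for a single immortalized line, so what the deletions did and what is particular to the line cannot be told apart. The design text calls the arrays of a group biological replicates but does not say whether separate cultures were used. The p-values therefore rest on the spread between these arrays, which may be technical.

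MMPs are zinc proteases that cut the proteins of the extracellular matrix and free growth factors and cytokines bound to it. The stromelysins (Mmp3 and Mmp10) cut many matrix proteins and activate other MMPs, the collagenase Mmp13 cuts fibrillar collagen, and the gelatinases (Mmp2 and Mmp9) cut denatured collagen and basement membrane collagen. Mmp11, also called stromelysin-3, is activated inside the cell by furin, and Mmp14 is anchored in the cell membrane, where it activates proMmp2. TIMPs bind the active site of MMPs. Fibroblasts are a main source of stromelysins and collagenase in inflamed joints, where TNF induces them.

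Median raw signals ranged over the arrays from 94.9 to 141.5, with 11637 to 12599 probes above background (detection p under 0.05). Levels are given as log2 signals after background correction and quantile normalization, a difference is a log2 difference with its standard error after ±, and n is 2 arrays in each group throughout. A gene "rose", "fell" or "differed" where limma's adjusted p (Benjamini-Hochberg over 10031 features) was under 0.05. Among the fibroblast markers, 5 of 7 were above background on all 12 arrays (Col1a1, Col1a2, Col3a1, Pdgfra and Vim). Thy1 was above background on the 4 Rela-/-Nfkb2-/- arrays and on no other, and Pdgfrb on 9 arrays. The signals of these 7 genes after background correction and normalization were summed on a linear scale. The sum was 76628 to 77843 with TNF and 58903 to 80682 without it in Rela-/-Nfkb2-/- cells. It was 22287 to 33875 with TNF and 31698 to 32313 without it in Rela-/-Relb-/-Rel-/- cells. In WT cells it was 33042 to 34038 with TNF and 35391 to 36584 without it. The keratin gene Krt14 was above background on the 4 Rela-/-Relb-/-Rel-/- arrays and on no other, and the summed signal of the 3 epithelial markers with a probe was 1212 to 1786 on those arrays, against 90.3 to 122.9 on the other 8. The part of these line differences in the results was not tested. The leukocyte markers Ptprc and Itgam, the endothelial markers Pecam1 and Cdh5, the keratin gene Krt5 and the muscle regulator Myod1 were above background on 0 of 12 arrays. Other markers of these lists were dim but detected, on 12 arrays for the epithelial Cdh1, the endothelial Kdr and the muscle Des and on 10 arrays for the endothelial Tek and the muscle Myog. The SD of the differences between replicate arrays was 0.27 and 0.30 in the WT groups, against 0.46 to 0.67 in the mutant groups, while the model holds 1 spread for all groups.

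The promoters of the 3 genes that rose in WT cells, which lie in the same run of MMP genes on mouse chromosome 9, are shown first. The sequences are from RefSeq (build GRCm38.p6, plus strand), with 250 bases before and 50 bases after the annotated start of the gene, at chr9:7445572-7445871 for Mmp3, chr9:7502092-7502391 for Mmp10 and chr9:7272264-7272563 for Mmp13. Capitals mark, in 5′ to 3′ order, a match to the AP-1 site TGANTCA and a match to the TATA box TATAAA.
Mmp3: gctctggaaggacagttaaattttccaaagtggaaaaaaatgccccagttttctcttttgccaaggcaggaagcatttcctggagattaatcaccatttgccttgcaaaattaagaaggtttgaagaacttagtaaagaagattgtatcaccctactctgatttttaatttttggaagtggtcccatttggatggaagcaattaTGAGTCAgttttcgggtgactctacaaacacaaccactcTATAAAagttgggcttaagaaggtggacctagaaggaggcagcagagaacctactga
Mmp10: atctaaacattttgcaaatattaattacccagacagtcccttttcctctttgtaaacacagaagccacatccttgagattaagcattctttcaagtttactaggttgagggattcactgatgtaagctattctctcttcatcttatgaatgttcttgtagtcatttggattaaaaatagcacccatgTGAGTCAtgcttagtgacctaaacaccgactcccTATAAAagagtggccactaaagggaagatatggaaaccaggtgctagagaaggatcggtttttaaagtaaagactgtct
Mmp13: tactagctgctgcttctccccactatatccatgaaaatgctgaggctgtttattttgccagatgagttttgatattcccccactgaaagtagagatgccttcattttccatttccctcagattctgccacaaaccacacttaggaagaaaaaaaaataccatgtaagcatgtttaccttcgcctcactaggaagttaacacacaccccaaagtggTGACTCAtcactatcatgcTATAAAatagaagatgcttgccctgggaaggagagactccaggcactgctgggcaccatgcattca
The AP-1 match began 46 bases before the annotated start in Mmp3, 63 bases before it in Mmp10 and 35 bases before it in Mmp13, and the TATA match 7, 29 and 16 bases before it. In each promoter the match to the AP-1 site lay upstream of the TATA match and did not overlap it. Of the 10 genes, 8 matched the promoter table (Mmp2 and Mmp9 did not), and a search of both strands found both motifs in these 3 and neither in Mmp11, Mmp14, Timp1, Timp2 and Timp3. Among 32851 promoter windows of the same length, 7.81% held the AP-1 site, 13.6% the TATA box and 1.54% both. The NFκB consensus site (the κB motif) was found in 0 of 8 windows, against 8.46% of all windows. A match describes the letters and is no evidence of binding, and a missing match speaks for this window alone.

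**Figure D1:**
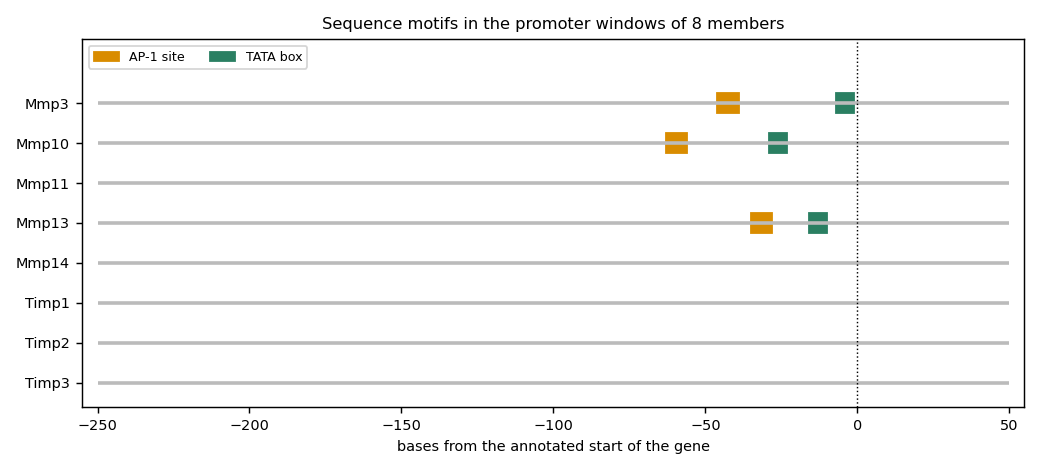
Matches to the AP-1 site and the TATA box in the promoter windows of 8 MMP and TIMP genes, drawn to scale with the distance from the annotated gene start in bases on the x axis. Mmp3, Mmp10 and Mmp13 each hold an AP-1 match upstream of a TATA match, and the other 5 windows hold neither.

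The genes that passed after TNF were not the same in the 3 lines, which by itself does not show that their responses differed between lines. In Rela-/-Nfkb2-/- cells 4 of 10 rose (Mmp3, Mmp9, Mmp10 and Timp1), where 8.03% of all features rose, and 2 fell (Mmp11 and Mmp13), where 11.6% of all features fell. In Rela-/-Relb-/-Rel-/- cells Mmp11 alone fell, where 0.798% of all features fell, and limma called 0 of 10 as higher, where it called 1.39% of all features (Timp1 alone was higher at an unadjusted p under 0.05). In WT cells 3 of 10 rose (Mmp3, Mmp10 and Mmp13), where 0.857% of all features rose, and limma called 0 of 10 as lower, where it called 0.339% of all features (Timp3 alone was lower at an unadjusted p under 0.05). The median log2 response of the 10 genes was 0.24 in Rela-/-Nfkb2-/- cells, 0.13 in Rela-/-Relb-/-Rel-/- cells and 0.31 in WT cells, against medians over all features of 0.00, -0.01 and -0.04. As RNA was read in bulk, fewer cells expressing a gene and less RNA per cell cannot be told apart.

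**Figure D2:**
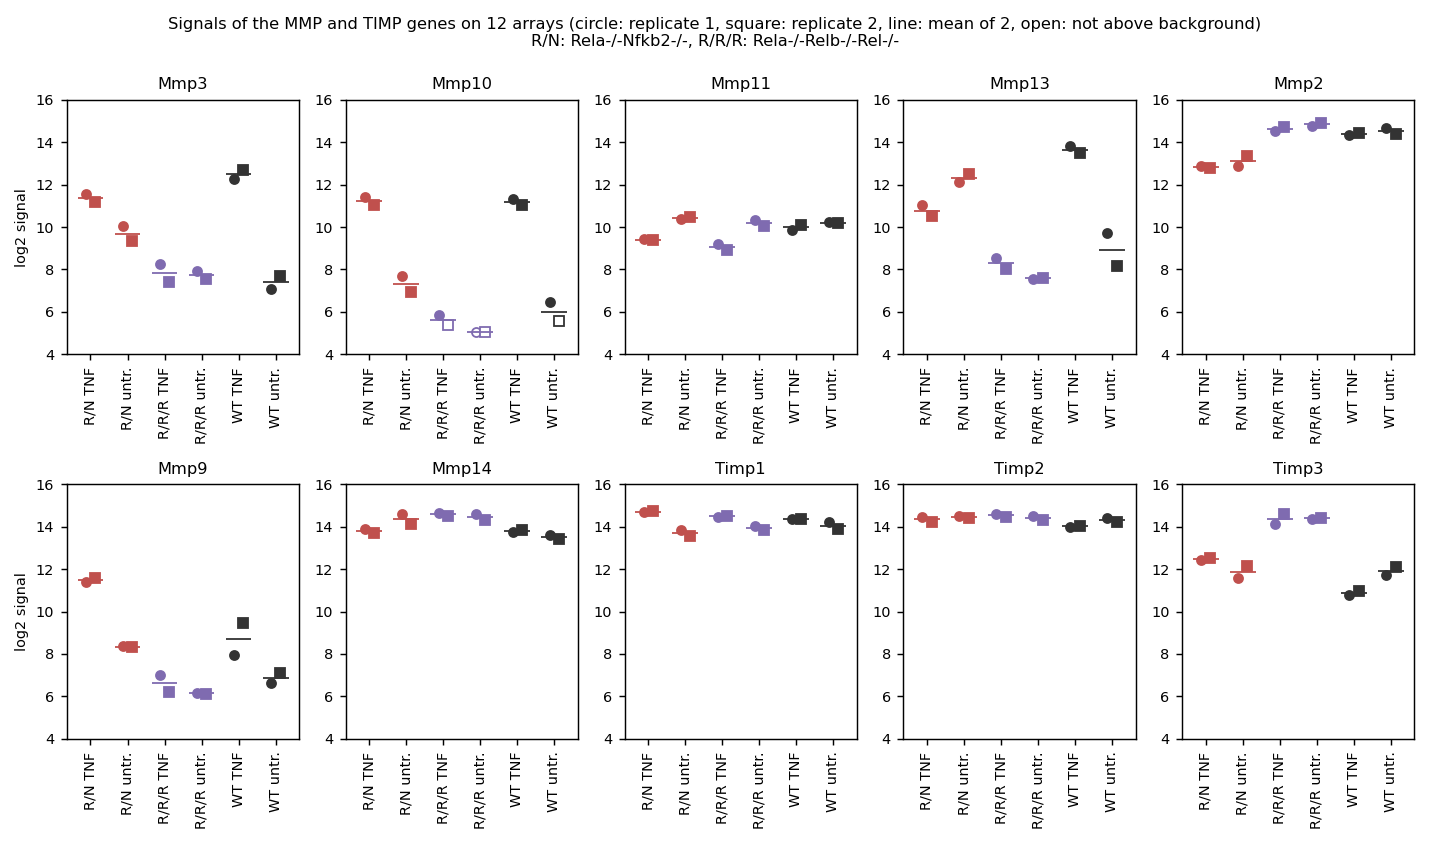
Log2 signal of each gene on the 12 arrays, with replicate 1 as a circle, replicate 2 as a square, the mean of 2 as a line and open symbols where the probe was not above background. Mmp3, Mmp9, Mmp10 and Mmp13 span several log2 units between groups, whereas Mmp2, Mmp14, Timp1 and Timp2 stay bright on all 12 arrays.

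The stromelysin gene Mmp3 rose in Rela-/-Nfkb2-/- and in WT cells. Its log2 signals were 11.57 and 11.20 with TNF and 10.05 and 9.32 without it in Rela-/-Nfkb2-/- cells. They were 8.27 and 7.39 with TNF and 7.94 and 7.57 without it in Rela-/-Relb-/-Rel-/- cells. They were 12.28 and 12.69 with TNF and 7.10 and 7.68 without it in WT cells. The TNF arrays thus stood clear of the untreated arrays in Rela-/-Nfkb2-/- and WT cells, and overlapped with them in Rela-/-Relb-/-Rel-/- cells. The rise was 1.70 ± 0.36 in Rela-/-Nfkb2-/- cells (3.24-fold, adjusted p = 0.0124) and 5.09 ± 0.36 in WT cells (34.1-fold, adjusted p = 2.85e-04), while the difference in Rela-/-Relb-/-Rel-/- cells was 0.08 ± 0.36 with a 95% interval from -0.75 to 0.90. Both mutant responses were smaller than that of WT, with differences of -3.40 ± 0.52 in Rela-/-Nfkb2-/- cells (adjusted p = 0.00955) and -5.02 ± 0.52 in Rela-/-Relb-/-Rel-/- cells (adjusted p = 0.00357). Without replicate 2 of the untreated Rela-/-Nfkb2-/- arrays or replicate 1 of their TNF arrays, the rise in that line lost its call (1.33, adjusted p = 0.0577, and 1.51, adjusted p = 0.0846), and without replicate 2 of the WT TNF arrays so did its difference from WT (-3.19, adjusted p = 0.0550).

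Mmp10, the second stromelysin, was the gene whose response in Rela-/-Nfkb2-/- cells came nearest to that in WT cells among the 3 genes that rose in WT cells. It read 11.41 and 11.03 with TNF and 7.68 and 6.94 without it in Rela-/-Nfkb2-/- cells. It read 5.86 and 5.40 with TNF and 5.04 and 5.06 without it in Rela-/-Relb-/-Rel-/- cells, above background on 1 of these 4 arrays (replicate 1 with TNF). It read 11.35 and 11.03 with TNF and 6.44 and 5.56 without it in WT cells, where replicate 2 without TNF was not above background. The TNF arrays of Rela-/-Nfkb2-/- and WT cells covered nearly the same range. The rise was 3.91 ± 0.34 in Rela-/-Nfkb2-/- cells (15.1-fold, adjusted p = 1.45e-04) and 5.19 ± 0.34 in WT cells (36.4-fold, adjusted p = 2.41e-04). The WT fold takes the background signal of untreated replicate 2 as it stands, so it is not an exact size. No fold is given for Rela-/-Relb-/-Rel-/- cells, which lay at background. The response of Rela-/-Relb-/-Rel-/- cells was lower than that of WT cells, with a difference of -4.60 ± 0.48 (adjusted p = 0.00357), and the response of Rela-/-Nfkb2-/- cells exceeded that of Rela-/-Relb-/-Rel-/- cells by 3.33 ± 0.48 (adjusted p = 0.00610). Both are fitted values that take the background signals of Rela-/-Relb-/-Rel-/- cells as they stand, so they are neither exact sizes nor bounds. The difference of -1.27 ± 0.48 between Rela-/-Nfkb2-/- and WT cells did not pass (95% interval from -2.36 to -0.19, adjusted p = 0.207). It passed in a fit that took same-numbered arrays of a genotype as pairs (the replicate block, adjusted p = 0.0329). These pairs were read from the same data, not from the labels, so passes with the block are no independent support, here and below.

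Mmp13, the collagenase, moved in opposite directions in Rela-/-Nfkb2-/- and WT cells. It read 11.04 and 10.50 with TNF and 12.13 and 12.48 without it in Rela-/-Nfkb2-/- cells. It read 8.55 and 8.04 with TNF and 7.56 and 7.62 without it in Rela-/-Relb-/-Rel-/- cells. It read 13.82 and 13.48 with TNF and 9.72 and 8.15 without it in WT cells. The highest of the 6 groups was therefore WT with TNF, followed by untreated Rela-/-Nfkb2-/- cells, and the ranges of untreated WT and TNF-treated Rela-/-Relb-/-Rel-/- cells overlapped. Mmp13 fell by 1.54 ± 0.44 in Rela-/-Nfkb2-/- cells (adjusted p = 0.0407) and rose by 4.71 ± 0.44 in WT cells (26.2-fold, adjusted p = 0.00126). In Rela-/-Relb-/-Rel-/- cells the difference was 0.71 ± 0.44 with a 95% interval from -0.30 to 1.72. The responses differed from that of WT by -6.25 ± 0.63 in Rela-/-Nfkb2-/- cells (adjusted p = 0.00131) and by -4.00 ± 0.63 in Rela-/-Relb-/-Rel-/- cells (adjusted p = 0.0258). The fall in Rela-/-Nfkb2-/- cells was close to the threshold, as 8 of the 12 fits that left out 1 array missed it (adjusted p from 0.0609 to 0.187), and the difference between Rela-/-Relb-/-Rel-/- and WT cells was missed in 5 of 12 (0.0619 to 0.121). Between the mutant lines, Rela-/-Nfkb2-/- minus Rela-/-Relb-/-Rel-/-, the difference in response was -2.25 ± 0.63, which did not pass (adjusted p = 0.0784). It passed with the replicate block (adjusted p = 0.0252) and in a fit of the compared groups alone (adjusted p = 0.0456).

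**Figure D3:**
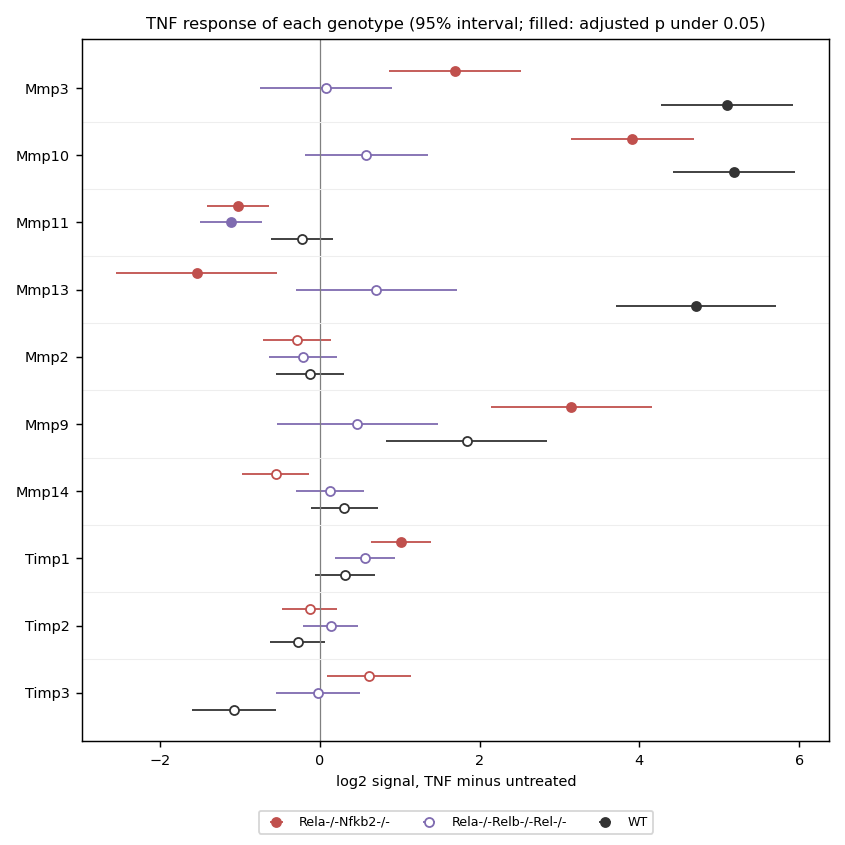
TNF response of each gene (log2 signal, TNF minus untreated, x axis) in the 3 genotypes with 95% intervals from the fit, filled where the adjusted p was under 0.05. Mmp3 and Mmp10 lie to the right of 0 in Rela-/-Nfkb2-/- and WT cells, Mmp13 lies to the left in Rela-/-Nfkb2-/- and to the right in WT cells, and of the 10 Rela-/-Relb-/-Rel-/- points Mmp11 alone is filled.

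Mmp11, a stromelysin by name, fell with TNF in both mutant lines. It read 9.44 and 9.38 with TNF and 10.39 and 10.47 without it in Rela-/-Nfkb2-/- cells. It read 9.21 and 8.91 with TNF and 10.32 and 10.04 without it in Rela-/-Relb-/-Rel-/- cells, and 9.85 and 10.11 with TNF and 10.22 and 10.18 without it in WT cells. The TNF arrays lay below the untreated arrays in all 3 lines. The difference was -1.02 ± 0.17 in Rela-/-Nfkb2-/- cells (adjusted p = 0.00403) and -1.11 ± 0.17 in Rela-/-Relb-/-Rel-/- cells (adjusted p = 0.0145), while the WT difference of -0.22 ± 0.17 did not pass (adjusted p = 0.817). Its responses in the mutant lines were not shown to differ from that of WT (differences of -0.80 ± 0.24 and -0.90 ± 0.24, adjusted p = 0.117 and 0.179), although the first passed with the replicate block (adjusted p = 0.0499). The fall in Rela-/-Relb-/-Rel-/- cells was lost without either of their untreated arrays or without replicate 2 of their TNF arrays (adjusted p from 0.0559 to 0.132).

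Of the gelatinases, Mmp9 rose and Mmp2 did not. Mmp9 read 11.40 and 11.58 with TNF and 8.37 and 8.31 without it in Rela-/-Nfkb2-/- cells. It read 7.03 and 6.20 with TNF and 6.16 and 6.12 without it in Rela-/-Relb-/-Rel-/- cells, and 7.93 and 9.46 with TNF and 6.63 and 7.08 without it in WT cells. Both TNF-treated Rela-/-Nfkb2-/- arrays were above every other array, and the TNF arrays of WT cells lay far apart. The rise in Rela-/-Nfkb2-/- cells was 3.15 ± 0.45 (8.87-fold, adjusted p = 0.00180), and it passed without any one of the 12 arrays. In WT cells the difference of 1.84 ± 0.45 did not pass (adjusted p = 0.117), but did with the replicate block (adjusted p = 0.0198) and without replicate 1 of the TNF arrays (2.60, adjusted p = 0.0193). In Rela-/-Relb-/-Rel-/- cells the difference was 0.47 ± 0.45. The response of Rela-/-Nfkb2-/- cells exceeded that of Rela-/-Relb-/-Rel-/- cells by 2.68 ± 0.63 (adjusted p = 0.0465), a call that 10 of the 12 fits without 1 array missed (0.0523 to 0.138). Against WT, neither mutant response passed, with differences of 1.31 ± 0.63 in Rela-/-Nfkb2-/- cells and -1.37 ± 0.63 in Rela-/-Relb-/-Rel-/- cells.

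Mmp2, by contrast, was bright on every array and did not pass in any line after TNF. It read 12.87 and 12.81 with TNF and 12.89 and 13.35 without it in Rela-/-Nfkb2-/- cells, 14.53 and 14.74 with TNF and 14.78 and 14.90 without it in Rela-/-Relb-/-Rel-/- cells, and 14.36 and 14.45 with TNF and 14.68 and 14.38 without it in WT cells. The 4 Rela-/-Nfkb2-/- arrays were below the other 8 arrays with and without TNF. The 3 responses lay between -0.28 ± 0.19 and -0.12 ± 0.19.

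Mmp14, the membrane-bound activator of proMmp2, did not pass in any line either. It read 13.91 and 13.71 with TNF and 14.58 and 14.15 without it in Rela-/-Nfkb2-/- cells, 14.65 and 14.52 with TNF and 14.58 and 14.33 without it in Rela-/-Relb-/-Rel-/- cells, and 13.77 and 13.86 with TNF and 13.60 and 13.42 without it in WT cells. The TNF arrays of Rela-/-Nfkb2-/- cells were below their untreated arrays, and those of WT cells above theirs. The differences were -0.55 ± 0.19 in Rela-/-Nfkb2-/- cells (adjusted p = 0.0689), 0.13 ± 0.19 in Rela-/-Relb-/-Rel-/- cells and 0.31 ± 0.19 in WT cells. With the replicate block, the difference within Rela-/-Nfkb2-/- cells passed (adjusted p = 0.0264), as did its difference from the WT response of -0.86 (adjusted p = 0.0437, against 0.122 without the block). The difference within Rela-/-Nfkb2-/- cells also passed in a limma fit with a trended, robust spread (adjusted p = 0.0313). It missed in 22 of 25 alternatives.

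Among the inhibitors, Timp1 rose in Rela-/-Nfkb2-/- cells, Timp2 passed in no comparison and Timp3 responded differently in Rela-/-Nfkb2-/- and WT cells. Timp1 read 14.68 and 14.76 with TNF and 13.82 and 13.57 without it in Rela-/-Nfkb2-/- cells, 14.47 and 14.53 with TNF and 14.02 and 13.84 without it in Rela-/-Relb-/-Rel-/- cells, and 14.38 and 14.36 with TNF and 14.23 and 13.89 without it in WT cells. In all 3 lines the TNF arrays were above the untreated arrays. The rise in Rela-/-Nfkb2-/- cells was 1.02 ± 0.17 (2.03-fold, adjusted p = 0.00339), while the differences of 0.57 ± 0.17 in Rela-/-Relb-/-Rel-/- cells (adjusted p = 0.129) and 0.31 ± 0.17 in WT cells (adjusted p = 0.625) did not pass. The Timp1 responses were not shown to differ between lines, with 0.71 ± 0.23 between Rela-/-Nfkb2-/- and WT cells (95% interval from 0.18 to 1.24, adjusted p = 0.151). Timp2 lay between 14.01 and 14.63 on all 12 arrays, and its 3 responses lay between -0.28 ± 0.15 and 0.14 ± 0.15.

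Timp3, the inhibitor that binds to the matrix, read 12.42 and 12.53 with TNF and 11.59 and 12.13 without it in Rela-/-Nfkb2-/- cells. It read 14.14 and 14.59 with TNF and 14.36 and 14.42 without it in Rela-/-Relb-/-Rel-/- cells, and 10.76 and 10.96 with TNF and 11.74 and 12.11 without it in WT cells. The TNF arrays were the higher ones in Rela-/-Nfkb2-/- cells and the lower ones in WT cells, and the untreated ranges of these lines overlapped. The responses were 0.61 ± 0.23 in Rela-/-Nfkb2-/- cells (adjusted p = 0.0989), -0.03 ± 0.23 in Rela-/-Relb-/-Rel-/- cells and -1.07 ± 0.23 in WT cells (adjusted p = 0.0793). With the replicate block those of Rela-/-Nfkb2-/- cells (adjusted p = 0.0310) and WT cells (adjusted p = 0.0228) passed. The WT response also passed with median scaling (adjusted p = 0.0209), with array weights by genotype (adjusted p = 0.00868) and in a fit of the compared groups alone (adjusted p = 0.0270). Of 25 alternatives it passed in 6 and missed in 19. The difference between the responses of Rela-/-Nfkb2-/- and WT cells was 1.68 ± 0.33 (adjusted p = 0.0281), a call that 9 of the 12 fits without 1 array missed (0.0549 to 0.118).

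Set over all 10 genes, the response of Rela-/-Nfkb2-/- cells was higher than that of WT for Timp3 and lower for Mmp3 and Mmp13, where 1.17% of all features were higher and 2.92% lower. The response of Rela-/-Relb-/-Rel-/- cells was lower than that of WT for Mmp3, Mmp10 and Mmp13, where 0.409% of all features were lower, and limma called 0 of 10 as higher, where it called 0.439% of all features (1 of 10 was higher at an unadjusted p under 0.05). The response of Rela-/-Nfkb2-/- cells was higher than that of Rela-/-Relb-/-Rel-/- cells for Mmp9 and Mmp10, where 1.33% of all features were higher, and limma called 0 of 10 as lower, where it called 3.65% of all features (2 of 10 were lower at an unadjusted p under 0.05). The difference of 1.62 ± 0.52 for Mmp3 between the mutant lines did not pass (adjusted p = 0.115). It passed with the replicate block (adjusted p = 0.00906) and with the mean of the gene's probes (1.65, adjusted p = 0.0172). The WT arrays stand in both comparisons with WT, so these are not independent of each other. With the block the number of genes that passed was 6 in place of 3 for Rela-/-Nfkb2-/- against WT and 4 in place of 2 between the mutant lines. Over all features the block raised the calls as well, to 405 higher and 632 lower in place of 117 and 293 for Rela-/-Nfkb2-/- against WT, and to 386 higher and 727 lower in place of 133 and 366 between the mutant lines.

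The lines also differed before TNF. In untreated Rela-/-Nfkb2-/- cells 5 of 10 genes were higher than in untreated WT cells (Mmp3, Mmp9, Mmp10, Mmp13 and Mmp14) and Mmp2 was lower, where 9.85% of all features were higher and 10.6% lower. Mmp13 was 3.37 ± 0.44 above WT (10.3-fold, adjusted p = 6.34e-04), Mmp3 2.30 ± 0.36 above (4.92-fold, adjusted p = 0.00191), and Mmp2 differed by -1.41 ± 0.19 (adjusted p = 7.08e-04). These 3 kept their calls without any one of the 12 arrays. Mmp9 was 1.49 ± 0.45 above WT (adjusted p = 0.0446) and Mmp14 0.86 ± 0.19 (adjusted p = 0.0107). Mmp10 was 1.31 ± 0.34 above WT (adjusted p = 0.0243), not an exact size, as replicate 2 of untreated WT was not above background. These 3 were less secure, as the call on Mmp9 was lost in 8 of the 12 fits without 1 array (0.0658 to 0.221), and those on Mmp10 and Mmp14 without replicate 2 of the untreated WT arrays (0.86, adjusted p = 0.183, and 0.77, adjusted p = 0.0859) or replicate 1 of the untreated Rela-/-Nfkb2-/- arrays (0.94, adjusted p = 0.133, and 0.64, adjusted p = 0.0625). The response of a line and its untreated difference from WT share the untreated arrays, so for Mmp3 and Mmp13 a high untreated level and a small or negative response are not separate observations.

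In untreated Rela-/-Relb-/-Rel-/- cells 2 of 10 genes were higher than in untreated WT cells (Mmp14 and Timp3) and Mmp13 was lower, where 17.2% of all features were higher and 20.5% lower. Timp3 was 2.47 ± 0.23 above WT (5.52-fold, adjusted p = 3.66e-05) and Mmp14 0.95 ± 0.19 (1.93-fold, adjusted p = 0.00348), and both passed without any one of the 12 arrays. Mmp13 differed by -1.35 ± 0.44 (adjusted p = 0.0401), and without replicate 1 of the untreated WT arrays, the brighter of the pair, by -0.56 (adjusted p = 0.253). In all, 7 of the 12 fits without 1 array missed this call (0.0503 to 0.253). Mmp10 was not above background on either untreated Rela-/-Relb-/-Rel-/- array or on replicate 2 of the untreated WT arrays, so no fold is given. The difference from WT did not pass (adjusted p = 0.0536), but did with the replicate block (adjusted p = 0.00580). It also passed with the authors' normalized values (adjusted p = 0.00455) and without background correction (adjusted p = 0.0496). Of 24 alternatives it passed in 6 and missed in 18. Mmp3, at 0.36 ± 0.36, was not shown to differ.

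**Figure D4:**
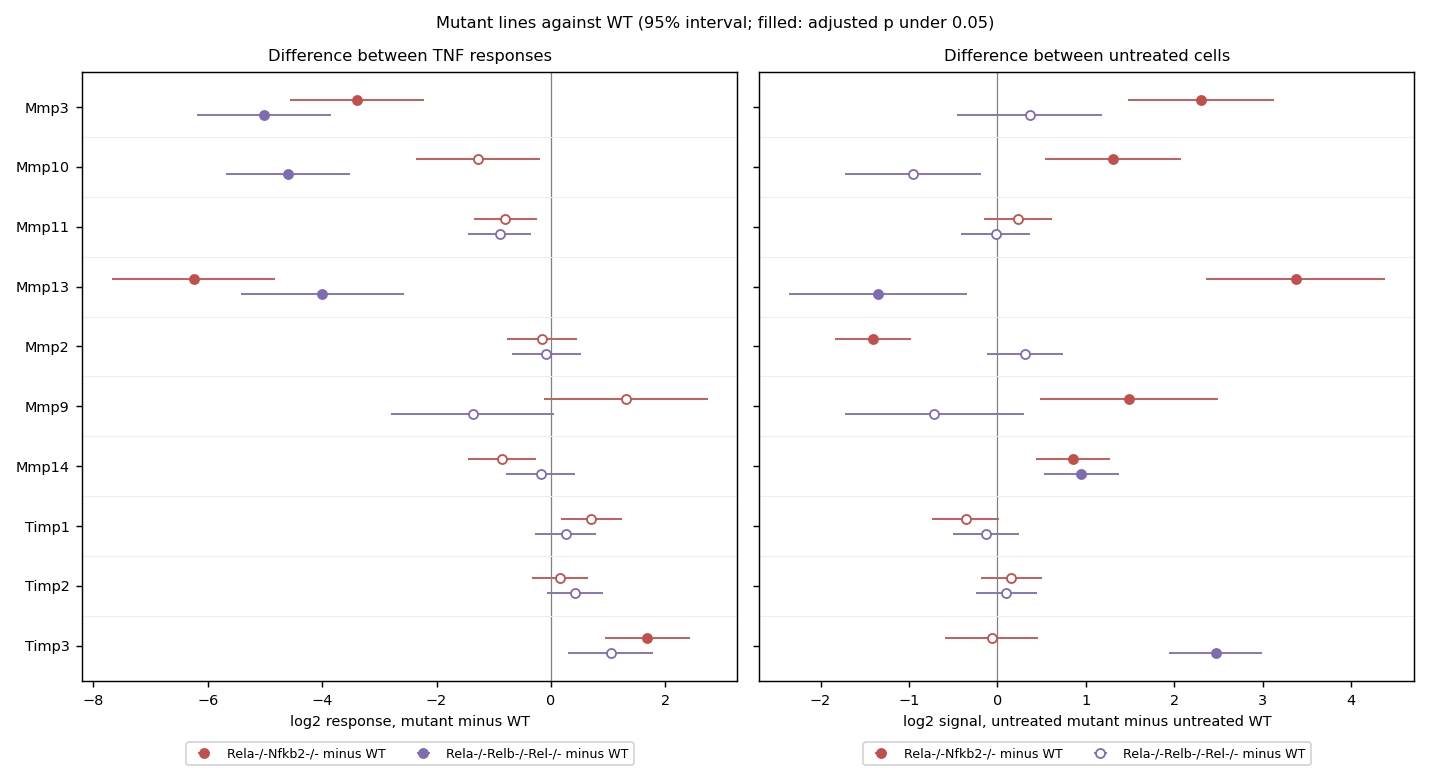
Mutant lines against WT for each gene, as the difference between TNF responses (left) and between untreated cells (right), in log2 with 95% intervals from the fit, filled where the adjusted p was under 0.05. Mmp3 and Mmp13 are on opposite sides of 0 in the panels for Rela-/-Nfkb2-/- cells, and Timp3 is the point farthest to the right for untreated Rela-/-Relb-/-Rel-/- cells.

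The other probes of Mmp3, Mmp13, Timp1 and Timp3 were compared with the brightest ones, a check added after the data had been seen. The second Mmp3 probe (ILMN_2704576) gave a rise of 1.64 ± 0.31 in Rela-/-Nfkb2-/- cells, 0.23 ± 0.31 in Rela-/-Relb-/-Rel-/- cells and a rise of 5.13 ± 0.31 in WT cells. The last Mmp3 probe (ILMN_2899041) gave 2.06 ± 0.72 in Rela-/-Nfkb2-/- cells and 0.14 ± 0.72 in Rela-/-Relb-/-Rel-/- cells, which did not pass, and a rise of 4.75 ± 0.72 in WT cells (adjusted p = 0.0188). With it, neither mutant response was shown to differ from that of WT (-2.70 ± 1.02, adjusted p = 0.228, and -4.61 ± 1.02, adjusted p = 0.101). On this probe replicates 1 and 2 lay far apart in the mutant lines (7.43 and 9.43 in untreated Rela-/-Nfkb2-/- cells), unlike in WT cells. For Mmp13, ILMN_1249336 fell by 1.19 ± 0.29 in Rela-/-Nfkb2-/- cells (adjusted p = 0.0230) and was at least 17.5-fold higher with TNF in WT cells (adjusted p = 1.54e-04), where it was not above background on either untreated array. The last Mmp13 probe (ILMN_2799267) was dim, between 5.75 and 6.49 on all arrays, and gave 0.46 ± 0.15 in Rela-/-Nfkb2-/- cells and 0.40 ± 0.15 in WT cells, neither of which passed. Neither probe repeated the lower Mmp13 of untreated Rela-/-Relb-/-Rel-/- cells against untreated WT cells (ILMN_1249336 -0.15, adjusted p = 0.741, ILMN_2799267 -0.09, adjusted p = 0.717). ILMN_1249336 was not above background in either of these groups and ILMN_2799267 was dim, so they cannot decide it. The second Timp1 probe gave 1.09 ± 0.15 in Rela-/-Nfkb2-/- cells (adjusted p = 0.00170). The second Timp3 probe (ILMN_2614759) was 3.29 ± 0.78 higher in untreated Rela-/-Relb-/-Rel-/- than in untreated WT cells (adjusted p = 0.00958), and its responses of 1.43 ± 0.78 in Rela-/-Nfkb2-/- cells and -0.90 ± 0.78 in WT cells had the signs of the brightest probe but did not differ past the threshold (adjusted p = 0.336).

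**Figure D5:**
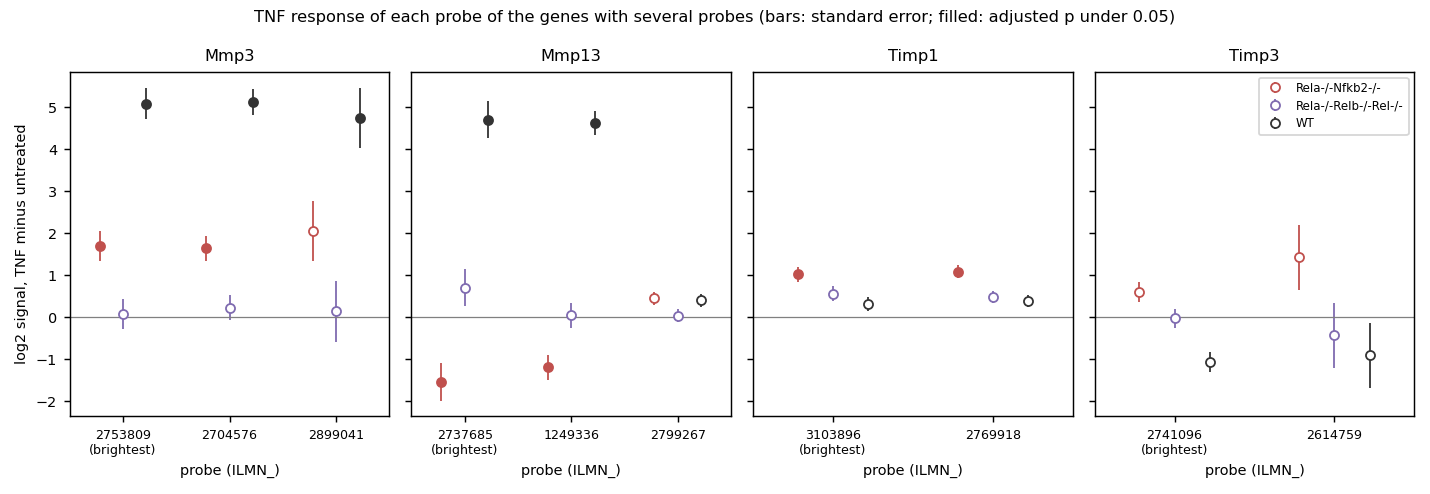
TNF response (log2 signal, TNF minus untreated, y axis) of every probe of the 4 genes with several probes, by genotype, with bars of 1 standard error and filled symbols where the adjusted p was under 0.05. The probes of Mmp3 and of Timp1 agree in order, and 2 of 3 Mmp13 probes show the fall in Rela-/-Nfkb2-/- cells and the rise in WT cells.

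Mmp3, Mmp10 and Mmp13 belong to a run of 10 neighbouring MMP genes on chromosome 9, in the order Mmp13, Mmp12, Mmp1b, Mmp3, Mmp1a, Mmp10, Mmp8, Mmp27, Mmp20 and Mmp7. Of 17 further MMP and TIMP genes looked up, 14 had a probe and 8 passed the filter, and of these 1 rose with TNF in Rela-/-Nfkb2-/- cells and 1 fell, limma called 0 in Rela-/-Relb-/-Rel-/- cells (1 of 8 at an unadjusted p under 0.05), and 1 rose in WT cells. The counts of 1 among 8 in Rela-/-Nfkb2-/- cells were near the shares of all features, 8.03% for a rise and 11.6% for a fall, and 0.857% of all features rose in WT cells. The gene in WT cells was Mmp12, the macrophage elastase, which read 6.80 and 6.82 with TNF and 5.02 and 5.15 without it. It was above background on these 2 TNF arrays and on none of the other 10, so it was at least 1.92-fold higher with TNF in WT cells, and no fold or difference in response is given for the mutant lines. As Mmp12 passed the filter through that group alone, it had to differ there, and its call is no support for the count. Mmp1a, an interstitial collagenase gene of the same run, rose by 0.64 ± 0.19 in Rela-/-Nfkb2-/- cells (adjusted p = 0.0490) and gave 0.28 ± 0.19 in WT cells. Mmp1b, Mmp7, Mmp8 and Mmp20 were above background on 0 of 12 arrays. Away from this run, Mmp17, a membrane-anchored MMP, was at least 2.00-fold lower with TNF in Rela-/-Nfkb2-/- cells (adjusted p = 0.00572). In untreated cells Mmp17 was at least 2.18-fold higher in Rela-/-Nfkb2-/- and at least 3.76-fold higher in Rela-/-Relb-/-Rel-/- than in WT cells, and Mmp23 at least 2.07-fold and at least 5.39-fold higher, as neither was above background in untreated WT cells. Mmp16, another membrane MMP, differed by -1.74 ± 0.45 between untreated Rela-/-Relb-/-Rel-/- and untreated WT cells (adjusted p = 0.0141).

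Of 17 genes of the plasmin system and of MMP activation, 15 had a probe and 11 were tested. With TNF 3 rose and 1 fell in Rela-/-Nfkb2-/- cells, 3 rose in Rela-/-Relb-/-Rel-/- cells and 1 rose in WT cells, where 8.03% of all features rose and 11.6% fell in Rela-/-Nfkb2-/- cells, 1.39% rose in Rela-/-Relb-/-Rel-/- cells and 0.857% rose in WT cells. Serpinb2, which encodes the plasminogen activator inhibitor PAI-2, read 8.37 and 8.38 with TNF and 5.20 and 4.96 without it in Rela-/-Nfkb2-/- cells, 8.23 and 7.23 with TNF and 4.86 and 4.91 without it in Rela-/-Relb-/-Rel-/- cells, and 9.69 and 9.44 with TNF and 6.93 and 6.60 without it in WT cells. It rose in all 3 lines, by at least 6.06-fold in Rela-/-Nfkb2-/- cells (adjusted p = 1.56e-04), by at least 3.52-fold in Rela-/-Relb-/-Rel-/- cells (adjusted p = 0.00221) and by 6.98-fold in WT cells (adjusted p = 0.00206). Serpinb2 therefore rose in Rela-/-Relb-/-Rel-/- cells, where none of the 10 MMP and TIMP genes did. Plaur, the urokinase receptor, rose by 2.06 ± 0.33 in Rela-/-Nfkb2-/- cells and 1.59 ± 0.33 in Rela-/-Relb-/-Rel-/- cells, against 0.67 ± 0.33 in WT cells, which did not pass. Cd44, a hyaluronan receptor that docks Mmp9 at the cell surface, rose by 0.91 ± 0.22 in Rela-/-Nfkb2-/- cells and 1.82 ± 0.22 in Rela-/-Relb-/-Rel-/- cells, against 0.41 ± 0.22 in WT cells. Mean Cd44 without TNF was 10.94 in Rela-/-Relb-/-Rel-/- cells against 12.25 in WT cells, and with TNF 12.76 against 12.66. The larger rise in Rela-/-Relb-/-Rel-/- cells and their lower untreated level share the untreated arrays and are not separate observations. Reck, a membrane-anchored inhibitor of MMPs, fell by 0.77 ± 0.14 in Rela-/-Nfkb2-/- cells (adjusted p = 0.00596). Of these 11 genes, limma called 0 as differing in response in each comparison between lines, against 3 for Rela-/-Nfkb2-/- and WT cells, 2 for Rela-/-Relb-/-Rel-/- and WT cells and 3 for the mutant lines at an unadjusted p under 0.05. Before TNF, Rela-/-Nfkb2-/- cells had higher levels than WT cells of 3 of the 11 genes and a lower level of 1, and Rela-/-Relb-/-Rel-/- cells had a higher level of 1 and lower levels of 5. Of all features, 9.85% were higher and 10.6% lower in untreated Rela-/-Nfkb2-/- cells, and 17.2% were higher and 20.5% lower in untreated Rela-/-Relb-/-Rel-/- cells. Thbs1, a thrombospondin, was higher in both lines (2.47 ± 0.47 in Rela-/-Nfkb2-/- cells and 1.47 ± 0.47 in Rela-/-Relb-/-Rel-/- cells), and Thbs2, a thrombospondin that takes part in the clearance of Mmp2, was higher in Rela-/-Nfkb2-/- cells (1.54 ± 0.28) and lower in Rela-/-Relb-/-Rel-/- cells (-1.42 ± 0.28). Furin, which activates Mmp11 and Mmp14, differed by -0.71 ± 0.21 in untreated Rela-/-Relb-/-Rel-/- cells from WT (adjusted p = 0.0228).

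Over the 12 arrays, the log2 signals of Mmp3 and Mmp10 followed each other most closely among the 10 genes (Pearson r = 0.95), followed by Mmp9 and Mmp10 (0.86) and Mmp3 and Mmp13 (0.84), while Mmp13 and Timp3 ran against each other (-0.85). These are descriptions over arrays that share 6 group means, and carry no test. For the 6 genes that passed in a TNF response, the named gene with the nearest pattern outside the family was Trim56 for Mmp3 (r = 0.92), Sprr2e for Mmp10 (0.95), Hbp1 for Mmp11 (0.95), Fndc3b for Mmp13 (0.94), Il15ra for Mmp9 (0.97) and Csnk1g3 for Timp1 (0.95). The next nearest to Mmp10 was the chemokine gene Ccl5 (0.95), and the next nearest to Mmp9 was the metal transporter gene Slc11a2 (0.96).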

How the data were processed

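The authors deposited, for every probe and array, a signal (a bead intensity, not normalized) with a detection p-value from GenomeStudio (version not given in the sources used here). Their second table, of intensities after background subtraction and quantile normalization, was used as an alternative. Signals were corrected and normalized with neqc (limma 3.58.1 in R 4.3.3, offset 16, log2), which gives every array the same distribution and pulls dim ratios toward 0. A probe was kept where both arrays of some group read above background (13387 probes), giving 10031 features with the brightest probe of each gene. One mean per group was fitted to 12 arrays (lmFit, eBayes, 6 residual degrees of freedom), with Benjamini-Hochberg adjustment in each of 8 comparisons. An "at least" fold sets the brighter group against the lowest signal above background. The number of arrays limits the precision. Alternatives were other corrections, filters, probes and fits, the methods' t-test and leaving out each array.

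The 10 genes and the lists were chosen with earlier results of these data known. Of the lists, only some members that passed were named, not always the largest in a comparison, so the named ones are no ranking. The gene nearest in pattern was given for each member that passed in a TNF response, and the next nearest for Mmp9 and Mmp10. Within a genotype, TNF and untreated arrays of 1 number deviated together (r = 0.67 in Rela-/-Nfkb2-/-, 0.70 in Rela-/-Relb-/-Rel-/- and 0.31 in WT cells), so the numbers were read as pairs from the data, not from the labels. Between the mutant lines r was 0.62 to 0.85. Promoters were from RefSeq, searched with Python 3.11.15, and figures drawn with matplotlib 3.10.9.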

Additional observations from a re-analysis of the deposited data

Results flagged for a closer look

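The 8 results listed here are differences between the TNF responses of 2 lines that passed the test of the difference itself. Against WT, the response of Rela-/-Nfkb2-/- cells differed by -3.40 for Mmp3, -6.25 for Mmp13 and 1.68 for Timp3 on the log2 scale. Against WT, the response of Rela-/-Relb-/-Rel-/- cells differed by -5.02 for Mmp3, -4.60 for Mmp10 and -4.00 for Mmp13. Between the mutant lines, Rela-/-Nfkb2-/- minus Rela-/-Relb-/-Rel-/-, the response differed by 2.68 for Mmp9 and 3.33 for Mmp10. Mmp10 was above background on 1 of 4 Rela-/-Relb-/-Rel-/- arrays, so its -4.60 and 3.33 are fitted values that rest on background signals, not exact sizes or bounds. For the -4.60, replicate 2 of the untreated WT arrays was not above background either. Mmp9 was barely above background in untreated Rela-/-Relb-/-Rel-/- cells (detection p = 0.0313 and 0.0263), so its 2.68 is not an exact size. Thy1 and Krt14, each above background in 1 mutant line alone, also separate the lines, and their part in these differences was not tested.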

How the results depend on the processing

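The number of the 10 genes that passed after TNF was 6 in Rela-/-Nfkb2-/- cells, 1 in Rela-/-Relb-/-Rel-/- cells and 3 in WT cells, 3 for Rela-/-Nfkb2-/- against WT responses, 3 for Rela-/-Relb-/-Rel-/- against WT, 2 between the mutant lines, and 6 and 3 for the untreated lines against WT, in that order below. With the replicate block within genotype they were 8, 1, 5, 6, 3, 4, 6 and 4, while over all features calls also became more frequent (in WT cells 175 rose and 115 fell, in place of 86 and 34). With array weights by genotype they were 5, 1, 5, 3, 3, 1, 5 and 2, in fits of the compared groups alone 2, 0, 4, 2, 2, 3, 4 and 3, and with median scaling 6, 0, 4, 3, 2, 1, 5 and 3. The authors' values and no filter each gave 1 between the mutant lines, and the filter on all 12 arrays, which drops Mmp10, gave 0 there and 1 for Rela-/-Relb-/-Rel-/- against WT. Before adjustment the methods' t-test gave 5 in Rela-/-Nfkb2-/- cells, 2 in Rela-/-Relb-/-Rel-/- cells, 4 in WT cells and 4 in untreated Rela-/-Nfkb2-/- cells, and after it 0 in each TNF response, 0 in untreated Rela-/-Nfkb2-/- and 1 in untreated Rela-/-Relb-/-Rel-/- cells. It was not run on the differences between responses. Leaving out 1 array, where the lone array left in its group is taken to vary like the other groups, gave 4 to 6, 0 to 1, 3 to 4, 1 to 3, 2 to 3, 1 to 2, 3 to 6 and 2 to 4. Single genes stayed on their side of the threshold in 1826 results, of which 22, none of them past it, changed sign. They lost the call in 120, gained one in 32, and in 2 lost the call while the sign reversed. Both reversals were the Mmp13 probe ILMN_2799267, which is dim, at 0.46 for the TNF response in Rela-/-Nfkb2-/- cells and 0.054 for its difference from WT. Median scaling moved the median of all features by -0.28 in Rela-/-Nfkb2-/- cells after TNF, where 207 features then rose and 1319 fell, in place of 805 and 1168, and by -0.33 between the mutant lines, where 41 were higher and 318 lower, in place of 133 and 366. For Rela-/-Nfkb2-/- against WT responses 24 were then higher and 183 lower, in place of 117 and 293. In WT cells it moved the median to -0.23, with 39 rising and 19 falling in place of 86 and 34, and for Rela-/-Relb-/-Rel-/- against WT responses to 0.25, with 18 higher and 19 lower in place of 44 and 41. The cause of these changes was not tested. Mmp10 lay at background on 3 of 4 Rela-/-Relb-/-Rel-/- arrays, so signal over background limits its values there.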
